A study of Mus musculus with 7 samples.

Results

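CTLA4 and CD28 are the 2 members of the T-cell costimulation pair among the 25 target proteins measured around vascular amyloid in aged PDAPP mice, and both were taken by name from the deposited table of counts. CD28 gives T cells the second, costimulatory signal that full activation needs, and CTLA4 is the inhibitory receptor that T cells raise after activation and that regulatory T cells carry constitutively. Both bind the same ligands on antigen-presenting cells, CD80 and CD86, and CTLA4 binds them more tightly, so the balance of the 2 receptors is known to set how readily a T cell responds. Their genes lie side by side on mouse chromosome 1, Cd28 followed by Ctla4 and by the related Icos. Neither CD80, CD86 nor ICOS is among the targets of the panel, so the ligand side was not measured.

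The PDAPP line overproduces human amyloid precursor protein and deposits amyloid in brain and vessel walls. Animals of 23 to 26 months, of both sexes, received under the skin either the anti-Aβ antibody 3D6 (mouse IgG2b, 25 mg/kg, 1 injection per week, 4 mice) or a control IgG (IgG2a isotype, 50 mg/kg, 2 injections per week, 3 mice) for 3 months, so antibody, isotype, dose and schedule all differed between the groups. Antibodies carrying oligonucleotide tags were released by ultraviolet light from circles of 100 μm (GeoMx digital spatial profiling) that had been chosen on amyloid and laminin staining. Up to 12 circles per mouse were placed in the leptomeninges and 12 on penetrating vessels, which gave values for 48 and 48 regions of 3D6 mice and for 34 and 36 regions of IgG mice. Regions of 1 mouse share that animal, so each comparison used the mean of a mouse as 1 value.

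The values are log2 of a deposited count over the background of the same region, which is the geometric mean of the 3 non-binding antibodies Rb IgG, Rt IgG2a and Rt IgG2b (the negative controls), and 0 therefore marks the level of non-specific binding. A ratio between probes also depends on how well each antibody binds, and does not count receptors. Fewer cells that carry a protein and less protein per cell cannot be told apart in such regions. The total count of a leptomeningeal region had a median over regions of 11573 in 3D6 mice and 22754 in IgG mice. On penetrating vessels it was 9650 and 15707. The negative controls themselves averaged 3.84 ± 0.39 (SD, n = 4) in 3D6 mice and 4.46 ± 0.19 (SD, n = 3) in IgG mice on the log2 scale in the leptomeninges (exact permutation test over 35 splits of the mice, two-sided, p = 0.0571). Nuclei numbered 34.5 per leptomeningeal region in 3D6 mice and 19 in IgG mice at the median. IgG mouse 37 stood apart, with negative controls at over 10 times their median of all regions in 1 leptomeningeal and 5 penetrating regions.

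CTLA4 lay above the negative controls in all 166 regions, whereas CD28 lay above them in 6 of 82 leptomeningeal regions and 16 of 84 penetrating regions. In the leptomeninges CTLA4 stood at 4.87 times the negative controls (log2 2.28, standard error 0.17, adjusted p = 2.2e-07 from limma over the 25 targets), and on penetrating vessels at 2.43 times (log2 1.28, standard error 0.13, adjusted p = 1.18e-05). CD28 stood at 0.373 times the negative controls in the leptomeninges (log2 -1.42, standard error 0.23, adjusted p = 0.000158) and at 0.487 times on penetrating vessels (log2 -1.04, standard error 0.25, adjusted p = 0.00376). In these tests 64% of the 25 targets were called higher than the negative controls at each site, and 20% were called lower in the leptomeninges and 16% on penetrating vessels. All 7 mice had CTLA4 above 0 and CD28 below 0 at both sites (exact sign-flip test over mice, p = 0.0156 each, the smallest that 7 mice allow). The place of CD28 depended on the control chosen: against Rt IgG2b alone it lay at -0.26 in the leptomeninges (adjusted p = 0.322 from limma) and at 0.22 on penetrating vessels (adjusted p = 0.464).

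The count behind CD28 was small. Its median was 6.53 deposited counts per region in the leptomeninges and 5.93 on penetrating vessels, with under 10 counts in 62 of 82 and 63 of 84 regions. CTLA4 had a median of 64.8 and 29.1 counts and fell under 10 in 0 and 3 regions. Above each of the 3 negative controls at once stood CTLA4 in 80 of 82 leptomeningeal and 62 of 84 penetrating regions, and CD28 in 1 and 8. Of the 8 penetrating regions, 5 belonged to IgG mouse 37. After division by each region's positive-control factor, CD28 took the same lowest value, 1.08, in 6 regions of 3 mice. In the 5 of these on penetrating vessels it is not a multiple of what 1 tag is worth. At such levels CD28 is a signal at or below non-specific binding, and the differences given for it are differences in that signal.

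In the order of levels, CTLA4 was the 9th of the 25 targets in the leptomeninges and the 13th on penetrating vessels, and CD28 the 22nd and the 24th. The 2 targets just above CTLA4 in the leptomeninges were fibronectin, a matrix protein, and CD45, the phosphatase of all leukocytes. The 2 just below were BatF3, a transcription factor of cross-presenting dendritic cells, and the macrophage antigen F4/80. None of these 4 was on the same side of CTLA4 in all mice, since CTLA4 was the higher one in 3 of 7 mice for each. On penetrating vessels its neighbours were the dendritic-cell integrin CD11c and the T-cell receptor subunit CD3e above and F4/80 and fibronectin below, and CTLA4 was the higher one in 1, 4, 2 and 4 of 7 mice. CD28 lay between PD-1 and CD163 above it and CD4 and FOXP3 below it in the leptomeninges, and on penetrating vessels FOXP3 was above it and CD4 below it. PD-1 is another inhibitory receptor of T cells, CD163 a scavenger receptor of perivascular macrophages and FOXP3 the transcription factor of regulatory T cells. CD28 was the higher one in 2 to 5 of 7 mice in each of these pairings. The lineage markers of T cells were spread across the order: CD3e stood at 1.83 and 2.53 times the negative controls in the leptomeninges and on penetrating vessels, CD8a at 1.23 and 1.12, and CD4 at 0.367 and 0.386.

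**Figure D1:**
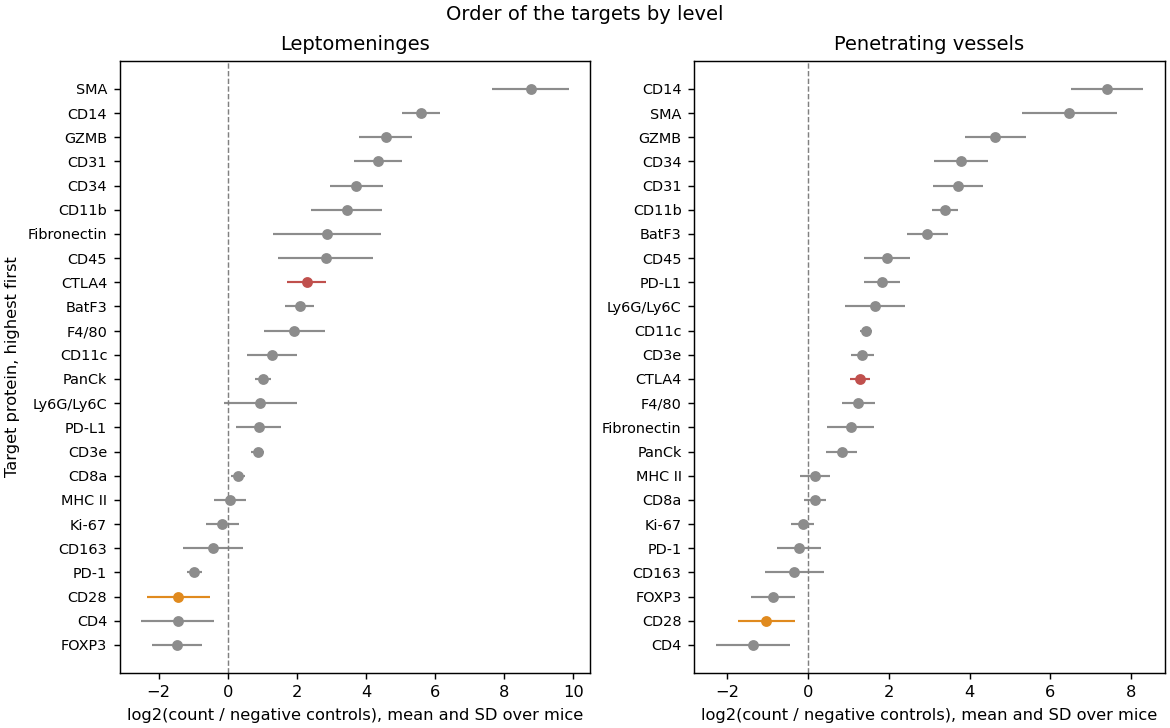
Level of the targets shown, as log2 ratio to the negative controls (horizontal axis) in the leptomeninges (left) and on penetrating vessels (right), highest at the top. Points are means with both treatments weighted equally, bars are the SD over 7 mice, the dashed line is the level of the negative controls, and CTLA4 (red) lies above it at both sites while CD28 (orange) lies below it.

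In the leptomeninges of 3D6 mice CTLA4 was lower and CD28 higher than in IgG mice, by amounts that did not pass the threshold for either protein alone. CTLA4 had log2 ratios of 1.62, 1.81, 1.66 and 2.32 in 3D6 mice 72, 77, 81 and 83, against 2.70, 3.16 and 2.29 in IgG mice 29, 37 and 49. The groups overlapped through a single pair, 3D6 mouse 83 and IgG mouse 49, which differed by 0.03. The means were 1.85 ± 0.32 (SD, n = 4) in 3D6 mice and 2.72 ± 0.44 (SD, n = 3) in IgG mice, a difference of -0.86 (95% interval -1.62 to -0.11, adjusted p = 0.0923 from limma, exact permutation p = 0.0857). For CD28 the values were -1.15, -0.10, -1.17 and -0.94 in 3D6 mice 72, 77, 81 and 83, against -1.86, -1.16 and -3.01 in IgG mice 29, 37 and 49. Here IgG mouse 37 lay within the range of the 3D6 mice and the other 2 IgG mice lay below all of them. CD28 averaged -0.84 ± 0.50 (SD, n = 4) in 3D6 mice and -2.01 ± 0.94 (SD, n = 3) in IgG mice, a difference of 1.17 (95% interval 0.14 to 2.21, adjusted p = 0.0923 from limma, exact permutation p = 0.0571). In this comparison 16% of the 25 targets were called higher and 4% lower in 3D6 mice by limma's adjusted p. An unadjusted limma p under 0.05 was reached by 40% of them, both members included.

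How the 2 differences stood to the threshold depended on the scale. As plain log2 counts, not divided by the negative controls, CTLA4 differed by -1.47 (adjusted p = 0.0184 from limma) and every 3D6 mouse lay below every IgG mouse. CD28 then differed by 0.56 (adjusted p = 0.632). The total count of a leptomeningeal region was also lower in 3D6 mice, with a median of 11573 against 22754 in IgG mice. Against the housekeepers CTLA4 differed by -1.70 (adjusted p = 0.00252 from limma), and CD28 by 0.33 (adjusted p = 0.704). CD28 also differed by less with counts summed over the regions of a mouse, at 0.68 (adjusted p = 0.423 from limma), and against Rt IgG2a alone, at 0.79 (adjusted p = 0.41). With the readout run as a block, CD28 differed by 1.31 (adjusted p = 0.0343), and without IgG mouse 37 by 1.60 (adjusted p = 0.0355). Without the regions of few nuclei, which removed all leptomeningeal regions of IgG mouse 37, CTLA4 differed by -0.43. Without IgG mouse 49, CD28 differed by 0.67. The 3 readout runs each held 1 IgG mouse and 1 or 2 3D6 mice. Within them CTLA4 differed by -0.30, -1.35 and -1.08 and CD28 by 1.96, 1.06 and 0.71, so each protein kept its direction in every run.

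On penetrating vessels neither protein separated the groups. CTLA4 had log2 ratios of 1.03, 1.13, 1.07 and 1.29 in 3D6 mice 72, 77, 81 and 83, against 1.15, 1.74 and 1.41 in IgG mice 29, 37 and 49, a difference of -0.31 (95% interval -0.89 to 0.28, adjusted p = 0.756 from limma, exact permutation p = 0.114). Without IgG mouse 37 it was -0.15. CD28 had -0.93, -0.23, -1.59 and -1.60 in the 3D6 mice, against -0.99, -0.07 and -1.90 in the IgG mice, a difference of -0.10 (95% interval -1.25 to 1.05, adjusted p = 0.911, exact permutation p = 0.914). The highest CD28 of each group came from the same run, 3D6 mouse 77 and IgG mouse 37. At this site 0% of the 25 targets were called in either direction, and 8% had an unadjusted p under 0.05, neither member among them. The sign of the CD28 difference turned in 6 of the settings tried, and its interval covers a change of more than 1 log2 unit either way.

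**Figure D2:**
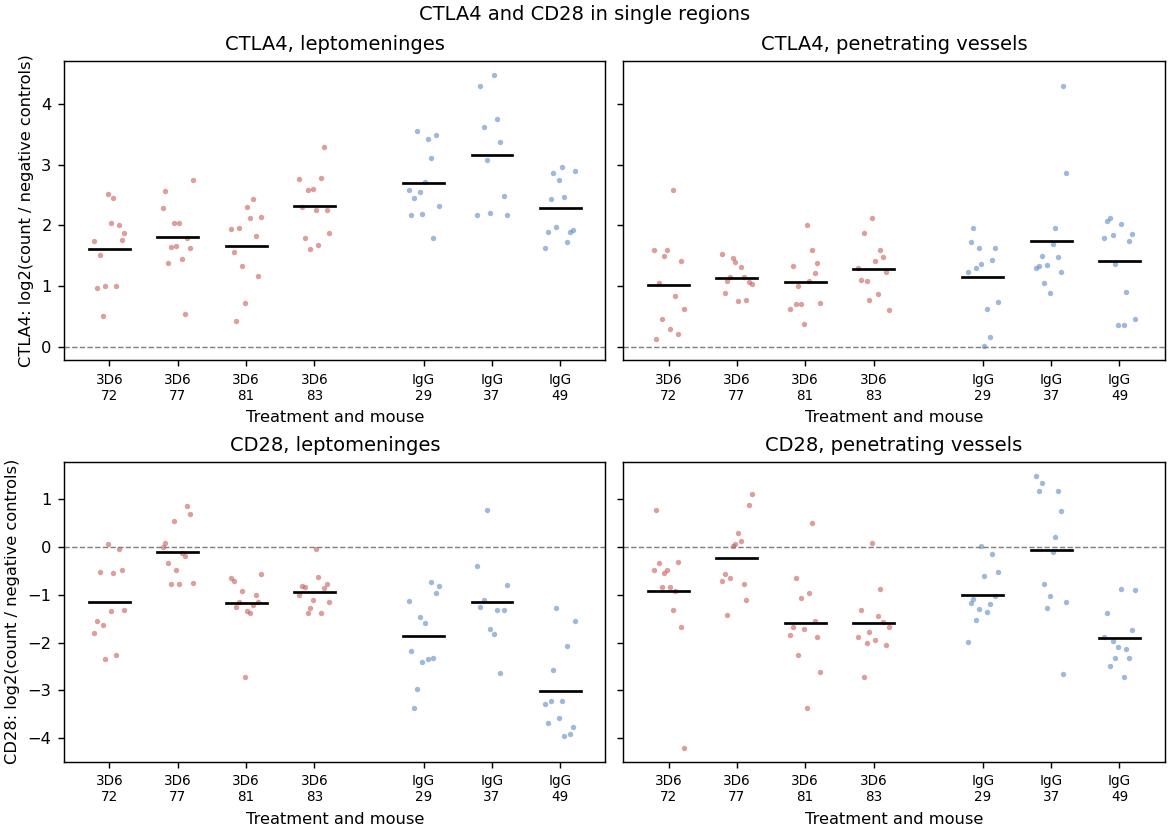
CTLA4 (top) and CD28 (bottom) in every region of the leptomeninges (left) and penetrating vessels (right), as log2 ratio to the negative controls (vertical axis), by treatment and mouse (horizontal axis). Points are regions, black lines are the means of a mouse, and the dashed line is the level of the negative controls. In the leptomeninges the 3D6 means run from 1.62 to 2.32 for CTLA4, against 2.29 to 3.16 in IgG mice, and from -1.17 to -0.10 for CD28, against -3.01 to -1.16.

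CTLA4 was higher in the leptomeninges than on penetrating vessels in 7 of 7 mice. The difference was 0.59, 0.68, 0.60 and 1.03 in 3D6 mice 72, 77, 81 and 83, and 1.55, 1.42 and 0.88 in IgG mice 29, 37 and 49. Over both groups the mean was 1.00 ± 0.16 (standard error; exact sign-flip p = 0.0156, adjusted p = 0.00054 from limma). In this comparison 24% of the 25 targets were called higher in the leptomeninges and 28% lower. The size rests in part on the calibration factors in the deposited counts, which differ between the sites: the value of 1 CTLA4 tag, as found from the low counts, ran from 1.00 to 2.13 among the mice in the leptomeninges and from 0.67 to 1.14 on penetrating vessels. With these factors removed, the difference was 0.48 (adjusted p = 0.074), and it stayed positive in 7 of 7 mice. It was then 0.15 ± 0.07 (SD, n = 4) in 3D6 mice and 0.81 ± 0.59 (SD, n = 3) in IgG mice, with the highest, 1.48, in IgG mouse 29.

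CD28 was lower in the leptomeninges than on penetrating vessels in 3 of 3 IgG mice, and in 1 of 4 3D6 mice. The leptomeninges minus penetrating vessels difference was -0.22, 0.12, 0.43 and 0.66 in 3D6 mice 72, 77, 81 and 83, and -0.86, -1.09 and -1.11 in IgG mice 29, 37 and 49. No 3D6 mouse overlapped with an IgG mouse, and the treatment effect on CD28 differed between the sites by 1.27 ± 0.32 (standard error), with an exact permutation p of 0.0286, the smallest that 35 splits allow, and an adjusted p of 0.0177 from limma. Of the 25 targets, 24% were called higher in this test and 4% lower, and 40% had every 3D6 mouse above every IgG mouse, so that this separation was common in the panel. The call was lost against the housekeepers, where the value was 0.38 (adjusted p = 0.761), and with counts summed over the regions of a mouse, where it was 0.91 (adjusted p = 0.168). It was also lost without the regions of few nuclei, at 0.83 (adjusted p = 0.185), and without 3D6 mouse 81, IgG mouse 29 or IgG mouse 49, at 1.21, 1.35 and 1.23. For CTLA4 the treatment effects differed by -0.56 between the sites (standard error 0.31, adjusted p = 0.208, exact permutation p = 0.0857).

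The ratio of CD28 to CTLA4 within a region needs no negative controls, and in the leptomeninges it separated the groups. Its log2 value was -2.76, -1.91, -2.83 and -3.26 in 3D6 mice 72, 77, 81 and 83, against -4.56, -4.32 and -5.30 in IgG mice 29, 37 and 49. Every 3D6 mouse lay above every IgG mouse, with a gap of more than 1 log2 unit between the nearest 2. The means were -2.69 ± 0.56 (SD, n = 4) in 3D6 mice and -4.73 ± 0.51 (SD, n = 3) in IgG mice, and CD28 thus stood at 0.155 times the count of CTLA4 in 3D6 mice and at 0.0378 times in IgG mice, a 4.1-fold higher ratio in 3D6 mice. The difference of 2.03 gave an exact permutation p of 0.0286 (adjusted p = 0.0381 over the 4 tests of this ratio). In limma over the ratios of all 300 pairs of targets, the standard error was 0.51, the 95% interval 0.97 to 3.09 and the adjusted p 0.0051.

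This separation was not rare in the panel. Of the 300 ratios, 33.7% did not overlap between the groups in one direction or the other, and 30.7% were called by limma. CD28 to CTLA4 ranked 43rd by the size of its difference, against a median size of 0.86. Within the 3 readout runs the ratio differed by 2.25, 2.41 and 1.79. Between the 2 pairs of a 3D6 and an IgG mouse that shared all calibration factors of these probes, mice 72 and 49 and mice 83 and 37, it differed by 2.53 and 1.07. With the calibration factors removed the difference was 1.98, with counts summed over the regions of a mouse 1.61, and without the regions of few nuclei 1.61 (adjusted p = 0.055 in limma over 300 ratios). With the factors removed the groups still did not overlap, but the nearest mice were closer, 3D6 mouse 81 at -2.61 and IgG mouse 37 at -3.02. Leaving out each mouse in turn gave 1.75 to 2.24 (adjusted p 0.00538 to 0.0359 in limma over 300 ratios). By the exact test no call is possible with 6 mice, for which the smallest p is 0.0667 without an IgG mouse and 0.1 without a 3D6 mouse.

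On penetrating vessels the ratio was -1.95, -1.36, -2.66 and -2.89 in 3D6 mice 72, 77, 81 and 83, against -2.14, -1.81 and -3.31 in IgG mice 29, 37 and 49. The groups overlapped over most of their range, and the difference was 0.21 (95% interval -1.0 to 1.42 in limma, exact permutation p = 0.743, adjusted p = 0.743 over 4 tests). Without the regions of high background it was 0.60 (adjusted p = 0.814 in limma over 300 ratios). Of the 300 ratios, 8.67% did not overlap between the groups at this site and 0% were called by limma. The treatment effect on the ratio differed between the sites by 1.83 (exact permutation p = 0.0286, adjusted p = 0.0381 over 4 tests, adjusted p = 0.0152 in limma over 300 ratios, where 13% were called). The site difference of each mouse was -0.81, -0.55, -0.17 and -0.37 in 3D6 mice 72, 77, 81 and 83, and -2.41, -2.51 and -1.98 in IgG mice 29, 37 and 49, without overlap, as for 27.7% of the ratios. The ratio was lower in the leptomeninges in 7 of 7 mice, by 1.26 as the plain mean over the mice (exact sign-flip p = 0.0156, adjusted p = 0.0381 over 4 tests), and limma called 60.7% of the 300 ratios between the sites. The common direction was lost with the calibration factors removed. The site difference then averaged 0.61 ± 0.56 (SD, n = 4) in 3D6 mice and -1.44 ± 0.58 (SD, n = 3) in IgG mice, and the mean over all mice was -0.27 (exact sign-flip p = 0.562). The gap in the treatment effect between the sites was 2.04 under this setting (exact permutation p = 0.0286, adjusted p = 0.0571 over 4 tests), so its size held and its call was lost.

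**Figure D3:**
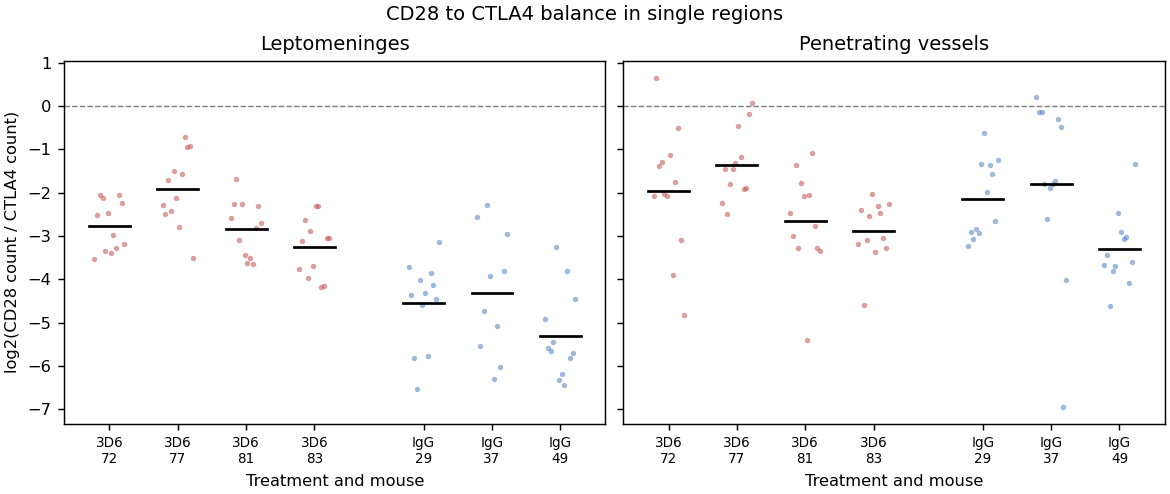
Log2 ratio of the CD28 count to the CTLA4 count in every region (vertical axis), by treatment and mouse (horizontal axis), in the leptomeninges (left) and on penetrating vessels (right). Points are regions, black lines are the means of a mouse, and the dashed line marks equal counts. The leptomeningeal means run from -3.26 to -1.91 in 3D6 mice, against -5.30 to -4.32 in IgG mice, and the penetrating-vessel means of the groups overlap.

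Single vessels of a mouse differed among themselves. The SD over the regions of a mouse had a median of 0.59 for CTLA4 and 0.82 for CD28 in the leptomeninges, beside an SD over the means of the 7 mice of 0.57 and 0.90. On penetrating vessels it was 0.63 for CTLA4 and 0.78 for CD28, beside 0.25 and 0.71 over the mice. The widest spread was that of the ratio in IgG mouse 37 on penetrating vessels, with an SD of 2.03 and a range of -6.95 to 0.20. In the 5 penetrating regions of this mouse with high negative controls, CTLA4 had 1237 to 3354 counts and CD28 1422 to 2896 counts, so that the 2 probes were near equal there. CD28 exceeded CTLA4 in 2 of 48 penetrating regions of 3D6 mice and 1 of 36 of IgG mice, and in 0 of 48 and 0 of 34 leptomeningeal regions.

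Across the regions of a mouse CTLA4 and CD28 did not move together in a fixed way. The correlations here are Pearson's r of log2 ratios centred on each mouse, given as descriptions without a test: regions of 1 mouse share the animal, the section and the readout, and both probes are divided by the same negative controls. In the leptomeninges r was 0.33 over the 48 regions of 3D6 mice and -0.04 over the 34 regions of IgG mice, and on penetrating vessels -0.02 over 48 and -0.34 over 36 regions. As 1 value per mouse, the mean r in the leptomeninges was 0.23 ± 0.41 (SD, n = 4) in 3D6 mice and -0.02 ± 0.22 (SD, n = 3) in IgG mice (exact permutation p = 0.4). On penetrating vessels it was 0.03 ± 0.20 (SD, n = 4) and -0.17 ± 0.39 (SD, n = 3; exact permutation p = 0.457, adjusted p = 0.457 over 2 sites for each).

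On penetrating vessels the regions with more CTLA4 were those with more of the 2 vessel wall proteins SMA and CD31. Beside smooth muscle actin (SMA), for which r was 0.64 over 84 regions, came CD31, the adhesion molecule of endothelial cells, at 0.59 and CD8a, the coreceptor of cytotoxic T cells, at 0.39. The other 2 proteins of the vessel wall and matrix list were lower, CD34 at 0.29 and fibronectin at 0.22. CD31 had an r of 0.58 in 3D6 mice and 0.65 in IgG mice and was positive in 7 of 7 mice, and CD8a had 0.32 and 0.47 and was positive in 6 of 7. The lowest values belonged to FOXP3, at -0.30, the neutrophil and monocyte antigen Ly6G/Ly6C, at -0.28, and CD28, at -0.19. For FOXP3 r was -0.10 in 3D6 mice and -0.55 in IgG mice, for Ly6G/Ly6C -0.20 and -0.36, and for CD28 -0.02 and -0.34. Among the IgG mice Ly6G/Ly6C and CD28 were lowest in mouse 37, with -0.74 and -0.60, against 0.22 and -0.076 in mouse 29 and -0.011 and 0.15 in mouse 49. CTLA4 also followed the number of nuclei in IgG mice, with r 0.07 in 3D6 mice and 0.55 in IgG mice.

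In the leptomeninges the partners of CTLA4 were weaker and differed between the groups. The highest over 82 regions were the proliferation antigen Ki-67 at 0.33, SMA at 0.29 and CD3e at 0.28. Ki-67 had an r of 0.30 in 3D6 mice and 0.42 in IgG mice and was positive in 7 of 7 mice. SMA had an r of 0.09 in 3D6 mice and 0.64 in IgG mice, while CD3e had 0.53 in 3D6 mice, positive in 4 of 4, and -0.13 in IgG mice, positive in 2 of 3. The differences of these correlations between the groups were not tested. At the low end stood PD-1 at -0.00, Ly6G/Ly6C at -0.01 and CD4 at -0.08, none of them far from 0.

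Over both groups CD28 had other leading partners than CTLA4. On penetrating vessels it followed Ly6G/Ly6C at 0.42, CD4 at 0.41 and FOXP3 at 0.32, with 0.26, 0.27 and 0.19 in 3D6 mice and 0.66, 0.59 and 0.56 in IgG mice. In IgG mouse 37 they were 0.89, 0.95 and 0.95, and without this mouse the values over both groups were 0.25, 0.24 and 0.22. CD28 in IgG mice also followed the negative controls themselves, with an r of 0.64, against 0.029 in 3D6 mice, and without the regions of high background the 3 partners had 0.34, 0.27 and 0.24. CD4, FOXP3 and CD28 are among the lowest targets of the panel at this site, so their common movement is one of signals at or below the negative controls. Its lowest partners there were SMA at -0.30, CTLA4 at -0.19 and the cytotoxic protease GZMB at -0.13. GZMB turned to 0.25 given the negative controls and to 0.18 without the regions of high background. CTLA4 stood at -0.0029 without IgG mouse 37. Without the 2 most extreme regions, the r of CTLA4 with CD28 was 0.023 as a relation of CD28 and -0.23 as a relation of CTLA4. In the leptomeninges CD28 followed CD34, a sialomucin of endothelial and progenitor cells, at 0.30, Ly6G/Ly6C at 0.28 and MHC II, the presenting molecule read by CD4 T cells, at 0.26, and the lowest were SMA at -0.28, CD31 at -0.12 and fibronectin at -0.12. Ly6G/Ly6C was positive in 7 of 7 mice in the leptomeninges and in 6 of 7 on penetrating vessels. In the leptomeninges of 3D6 mice the members had partners in common, named here after their values were seen: r with CD3e was 0.53 for both CTLA4 and CD28, and with BatF3 0.47 for both. In IgG mice r with CD3e was -0.13 for CTLA4 and -0.16 for CD28, and with BatF3 -0.30 and 0.098. The negative controls, which divide members and partners alike, had an r of -0.22 with CTLA4 and -0.43 with CD28 in the leptomeninges of 3D6 mice. Their part in the common partners was not tested.

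SMA thus stood on opposite sides of the 2 members, and the ratio of CD28 to CTLA4 was lower where SMA was higher. Over the 84 penetrating regions the r of the ratio with SMA was -0.57, at -0.37 in 3D6 mice and -0.72 in IgG mice, and negative in 7 of 7 mice. Over the 82 leptomeningeal regions it was -0.43, at -0.25 in 3D6 mice and -0.70 in IgG mice, and negative in 6 of 7. At the other end of the ratio was Ly6G/Ly6C, with 0.46 on penetrating vessels and 0.24 in the leptomeninges over both groups. On penetrating vessels it was 0.32 in 3D6 mice and 0.64 in IgG mice, with 0.92 in IgG mouse 37, the mouse of high background. In the leptomeninges it was 0.064 in 3D6 mice and 0.38 in IgG mice. The ratio itself holds no negative controls, while its partners were divided by them. On penetrating vessels the r of the ratio with the negative controls was 0.36, at 0.032 in 3D6 mice and 0.51 in IgG mice. In another setting, SMA times its slope over the regions within mice (0.21 for CTLA4 and -0.24 for CD28) was subtracted from each leptomeningeal region. The leptomeningeal difference between 3D6 and IgG mice was then -0.49 for CTLA4 (adjusted p = 0.264 from limma) and 0.74 for CD28 (adjusted p = 0.257). The error of the slopes is not part of these p-values.

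**Figure D4:**
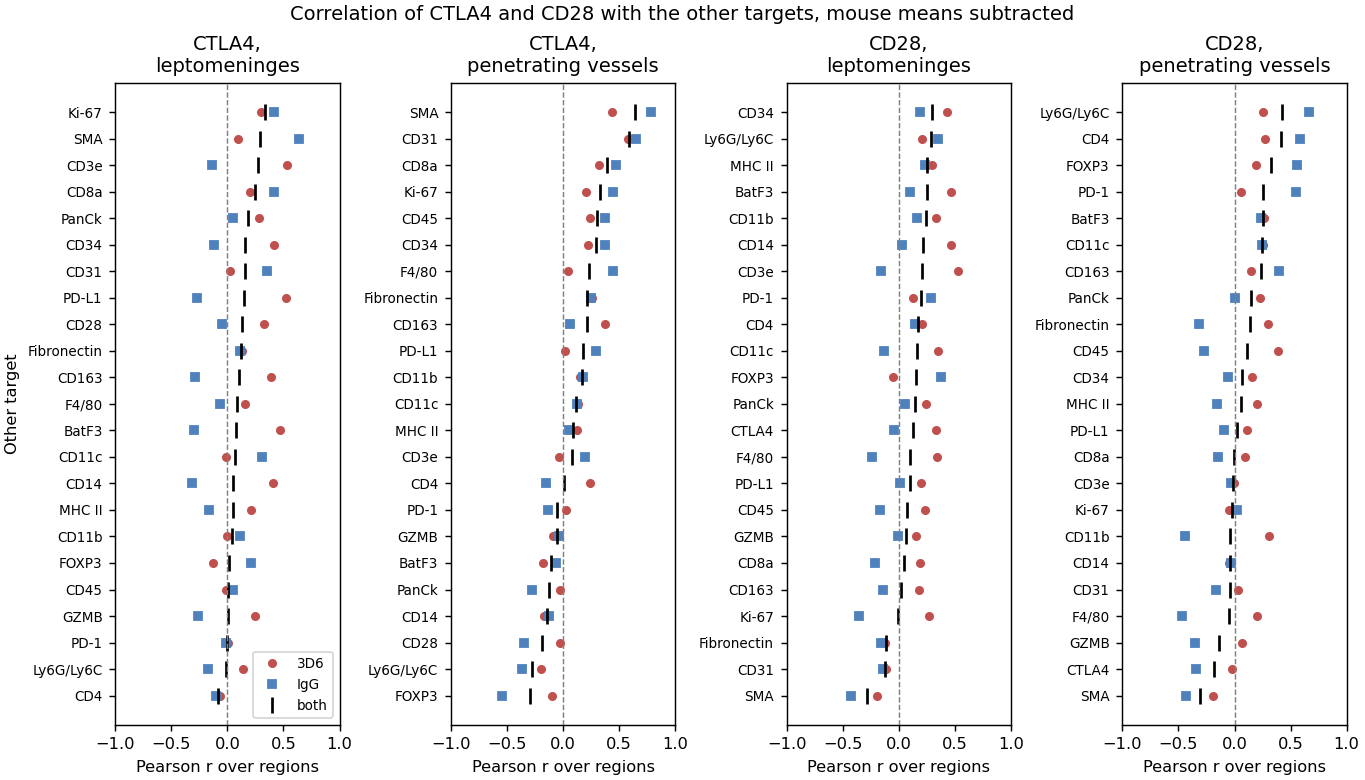
Pearson's r of CTLA4 (2 left panels) and CD28 (2 right panels) with the other targets shown over the regions of a site, after subtraction of the mean of each mouse (horizontal axis, -1 to 1), targets ordered by the r over both groups. Red circles are 3D6 mice, blue squares IgG mice and black bars both. SMA is among the highest partners of CTLA4 at both sites, with 0.29 and 0.64 over both groups, and the lowest of CD28, with -0.28 and -0.30.

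The signs of these relations depended on the scale. The 25 named relations list CTLA4 with CD28 on penetrating vessels under both members, so the counts below hold that pair under each. With no normalization 12 of the 25 named relations changed sign and all 25 were positive, with CTLA4 and CD28 at 0.52 in the leptomeninges and 0.76 on penetrating vessels, and against the housekeepers 11 changed sign and 24 were positive. With regions pooled without centring 4 of 25 changed sign, without IgG mouse 37 it was 3, and with Spearman's rho 2.

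Other proteins of the panel were counted in 5 lists, which hold T-cell, antigen-presenting, myeloid and vessel wall proteins, beside which the 25 targets as a whole had a median difference between 3D6 and IgG mice of 0.57 in the leptomeninges and -0.02 on penetrating vessels. By limma, 0 of the 3 T-cell receptor subunits and coreceptors (CD3e, CD4, CD8a) were called at either site (0 and 0 at an unadjusted p under 0.05), with median differences of 0.20 and 0.24 at the 2 sites in the same order. Of the T-cell state proteins (FOXP3, GZMB, PD-1, Ki-67), 0 of 4 were called (1 and 1 unadjusted), with medians of 0.57 and 0.07. Of the antigen-presenting side (MHC II, CD11c, BatF3, PD-L1), 0 of 4 were called (1 and 0 unadjusted), with medians of 0.59 and -0.10. Of the myeloid proteins (CD11b, F4/80, CD14, CD163, Ly6G/Ly6C), 2 of 5 were called higher in 3D6 mice in the leptomeninges, with a median of 0.94, and 0 on penetrating vessels (0 unadjusted), with a median of -0.32. Of the vessel wall and matrix proteins (SMA, CD31, CD34, Fibronectin), 1 was called higher and 1 lower in the leptomeninges, with a median of 0.56, and 0 on penetrating vessels (0 unadjusted), with a median of 0.16. CTLA4, at -0.86, thus lay on the other side of 0 from the median of all 5 lists in the leptomeninges, and CD28, at 1.17, was above each of these medians. The differences below 0 at this site were 4 of 25, namely those of SMA, CTLA4, CD163 and the monocyte coreceptor CD14.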

How the data were processed

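The deposited counts of 31 probes are fractional, because the authors had applied calibration and positive-control factors to them. The negative controls had not yet been used to scale them. The positive-control ratio and the number of nuclei of each region come from the authors' deposited summary. The authors' normalized scores and their results of comparisons were not used, and a further mouse that the header states as removed is not analysed here. Tools for whole counts were not run.

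Each count was divided by the geometric mean of its region's 3 negative controls, taken to log2 without a pseudocount, and averaged per mouse and site. Regions 1 to 12 of a mouse are leptomeninges and 13 to 24 penetrating vessels. Groups were compared with limma 3.58.1 in R 4.3.3 over 25 targets, with the Benjamini-Hochberg adjustment and a threshold of 0.05, beside exact permutation tests over 35 splits or 128 sign flips of the mice. All tests were two-sided. Groups were weighted equally in limma's tests of site and level, and sign-flip tests of the ratio used the plain mean over mice. For fits with the mouse as a block, statmod 1.5.0 gave a correlation between regions of a mouse of 0.326 in the leptomeninges and 0.273 on penetrating vessels. Exact tests and correlations used Python 3.11.15 with numpy 2.4.6 and pandas 2.3.3. Fits and exact tests were tested on simulated data. Each mouse is 1 animal, and its 24 regions or fewer are not replicates.

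The value of 1 tag was sought per probe, mouse and site as the step between 0.5 and 2.2 that makes most low values whole within 0.02. It did so for 314 of 319 low values of CTLA4 and CD28, a share that the search itself sought and that is no independent check.

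Named partners are the 3 targets with the highest and the 3 with the lowest r for each member and site. One target was kept in all fits and is not reported here. The members, the lists and the tests were chosen with earlier results of these data known. Alternatives covered the normalization, each negative control alone, a pseudocount of 1 and the median over regions. They also covered leaving out regions of few nuclei or of high background, and leaving out each mouse. Further ones were the readout run or the mouse as a block, a filter and a fit without moderation (Holm-Sidak adjustment). In a separate setting, SMA times its slope within mice was subtracted from each member before the groups were compared. Chosen after the data were seen were the removal of the calibration factors, summed counts, leaving out the regions where CD28 lay at its lowest shared value, and leaving out regions of high background for the partners. The section thickness is 5 μm in the sample labels and 10 μm in the methods.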

Additional observations from a re-analysis of the deposited data

Results flagged for a closer look

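The treatment effect on CD28 differed between the sites, at 1.27 on the log2 scale (adjusted p = 0.0177 from limma, exact permutation p = 0.0286). CD28 lay below the negative controls in all 7 mice at both sites. The treatment effect on the ratio of CD28 to CTLA4 also differed between the sites, at 1.83 (exact permutation p = 0.0286, adjusted p = 0.0381 over 4 tests). Both are the leptomeningeal effect minus the effect on penetrating vessels, and both rest on the same CD28 counts. In both every 3D6 mouse lay above every IgG mouse. The same held for 40% of the 25 targets, and 27.7% of the 300 ratios did not overlap in one direction or the other. The call for CD28 was lost in 11 of the other settings, among them against the housekeepers, at 0.38. No 3D6 mouse stood apart from the other 3 in CTLA4, CD28 or their ratio at either site by Dixon's criterion (6 groups of 4 mice), and groups of 3 IgG mice were not examined in this way. With 4 values this criterion can miss an unusual mouse. Without 3D6 mouse 77 the leptomeningeal difference of CD28 was 0.92, against 1.17 with all mice.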

How the results depend on the processing

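Values are log2 differences, and the cause of each change was not tested unless a value shows it. In its level and in the comparisons of groups and sites, CTLA4 kept its direction in every setting run. Between 3D6 and IgG mice in the leptomeninges it passed with no normalization (-1.47), against Rt IgG2a alone (-1.25), against the housekeepers (-1.70) and with all regions as values under a mouse block (-0.86), and its treatment effect differed between sites against Rt IgG2a alone (-0.72). The site difference of CTLA4 lost the call without the calibration factors (0.48). CD28 in the leptomeninges passed with all regions as values (1.18), against Rb IgG alone (1.49) and with the readout run as a block (1.31), and did not with counts summed per mouse (0.68). On penetrating vessels its difference turned positive against Rb IgG alone (0.13), with the run as a block (0.094) and without regions of high background (0.20). The gap in its treatment effect between sites lost the call with summed counts (0.91), the median over regions (1.31), no moderation (1.27), no normalization (1.61), Rt IgG2b alone (1.33), the housekeepers (0.38), and without regions of few nuclei (0.83) or of high background (1.04). Its site difference passed against Rb IgG alone (-0.52) and turned positive against the housekeepers (0.14) and without the calibration factors (0.066). Its level lost the call against Rt IgG2b alone in the leptomeninges (-0.26), turned positive there on penetrating vessels (0.22) and lost it with summed counts (-0.65).

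For the ratio of CD28 to CTLA4, the adjustment over 4 exact tests can lose a call when another of the 4 is lost. In the leptomeninges the call was lost with the median over regions (2.01), without the calibration factors (1.98) and without regions of few nuclei (1.61), where 6 mice remained. The same 3 settings gave 1.65, 2.04 and 1.11 for the gap in treatment effect between sites, and -1.32, -0.27 and -0.80 for the site difference. On penetrating vessels the ratio turned negative without the calibration factors (-0.059) and with summed counts (-0.029).

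Leaving out each mouse in turn gave, for 3D6 minus IgG mice in the leptomeninges, -1.08 to -0.64 for CTLA4, 0.67 to 1.60 for CD28 and 1.75 to 2.24 for the ratio, and on penetrating vessels -0.45 to -0.15 for CTLA4, -0.56 to 0.36 for CD28 and -0.24 to 0.51 for the ratio. For that gap it gave 1.13 to 1.43 for CD28, where the call was lost without 3D6 mouse 81 (1.21), IgG mouse 29 (1.35) or IgG mouse 49 (1.23), and 1.72 to 1.99 for the ratio. The site difference ran from -0.46 to -0.31 for CD28, passing without 3D6 mouse 83, and from -1.44 to -1.05 for the ratio. With fewer mice the exact test of the ratio cannot pass. Leaving out the regions where CD28 lay at its lowest shared value lost or turned none of the calls. The filter on targets above the negative controls removed CD28. No paired analysis was possible because the labels give the groups no shared replicate number, and the readout run, which holds mice of both groups, was entered as a block instead. Low CD28 counts limit every value that holds CD28.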
